A study of Mus musculus with 8 samples.

Results

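The mitochondrial solute carriers of family 25 (SLC25) were read out in the livers of mice that lack both liver X receptors. Members were all genes of the RNA-Seq table whose symbol is Slc25a followed by a number, which gave 45 of the 25010 genes listed. The 2 WT and 2 LXRDKO mice were on the C57BL/6 background, 8 wk old, and fasted for 4 to 6 h before the left lobe of the liver was taken. LXRDKO mice lack LXRα (Nr1h3) and LXRβ (Nr1h2) in every tissue, so a difference in whole liver can arise in any liver cell type or outside the liver. No agonist was given in these libraries, and each library held polyadenylated RNA of 1 mouse. Values are normalized counts, that is, reads on a gene divided by a size factor of the library.

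Most SLC25 proteins span the inner mitochondrial membrane, and a few lie in other membranes. Those with a known substrate each exchange or import a particular set of small molecules. They move citrate, malate, aspartate, ornithine, carnitine, ADP, ATP, phosphate, NAD, coenzyme A and iron between the matrix and the cytosol. In hepatocytes they connect matrix reactions to fatty acid synthesis, the urea cycle, gluconeogenesis and fatty acid oxidation. LXRs are nuclear receptors for oxysterols that bind DNA as partners of RXR and switch on genes of cholesterol efflux and lipogenesis.

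The 4 libraries held between 55772659 and 72842744 reads on genes. Replicate livers differed by a median of 0.18 (WT) and 0.17 (LXRDKO) per gene on the log2 scale, taken without sign. Nr1h3 had 5785 and 5322 normalized counts in WT, against 1712 and 1826 in LXRDKO, and Nr1h2 had 2987 and 3110 in WT and 925 and 1003 in LXRDKO, so both deleted receptors were lower in the libraries labelled LXRDKO (adjusted P = 0.0147 for each, limma). Hepatocyte markers were abundant in every liver, and of 7 such markers 3 were higher and 4 lower. Of these 7, DESeq2 called 2 higher (Tat and Hnf4a) and limma called 0. Of 8 Kupffer cell markers 7 were lower, 6 of them called by DESeq2, and their summed level was 11122 and 12009 normalized counts in WT against 4767 and 2560 in LXRDKO. Timd4 alone of these markers reached 0 reads, in 1 LXRDKO liver. All 5 cholangiocyte markers (2077 and 3582 summed in WT, 4553 and 5409 in LXRDKO) and all 5 stellate cell markers (6303 and 5783 in WT, 7992 and 8316 in LXRDKO) were higher, with 1 of each list called by DESeq2. Endothelial markers were lower in 4 of 5 cases, summing to 9182 and 8186 in WT and 6901 and 5277 in LXRDKO, and Kdr was called (adjusted P = 0.0498 by limma and 4.0e-09 by DESeq2). The 4 lymphocyte markers tested were all lower without overlap, as were 23% of all genes tested. Sums over the 5 listed were 117 and 180 in WT and 76.9 and 51.5 in LXRDKO. Of these markers 0 were called by limma, DESeq2 or edgeR (3 at an unadjusted limma P value under 0.05). The part of these shifts in any carrier difference below was not tested, and in whole liver fewer cells of a type and less RNA per cell cannot be told apart.

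The carriers covered a wide range of levels. Because exon length differs between genes, levels were compared as normalized counts per kb of exon, taken over all annotated exons of a gene. Slc25a47, a carrier expressed mainly in liver, stood first at a mean of 15360 per kb. Its normalized counts were 43492 and 55965 in WT and 38700 and 45238 in LXRDKO, so the ranges of the genotypes overlapped. Slc25a39, which imports glutathione into mitochondria, came next at 9907 per kb and was the steadiest of the abundant members. It had 26947 and 27437 normalized counts in WT, against 26956 and 27871 in LXRDKO, a log2 fold change of 0.01 (standard error 0.10). The order continued with Slc25a1 (7314 per kb), Slc25a13 (4563), Slc25a10 (4369), Slc25a23 (4363), Slc25a22 (3680), Slc25a15 (3317), Slc25a3 (3097) and Slc25a5 (2753). Slc25a13, Slc25a10 and Slc25a23 lay close together, and the order below Slc25a1 changed between livers. Slc25a15 had 2798 and 2397 per kb in WT and 3673 and 4399 in LXRDKO. It lay below Slc25a22 in both WT livers (3260 and 3784) and above it in both LXRDKO livers (3359 and 4318). These 10 members took between 74.4% and 76.1% of the family's summed level in a liver.

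**Figure D1:**
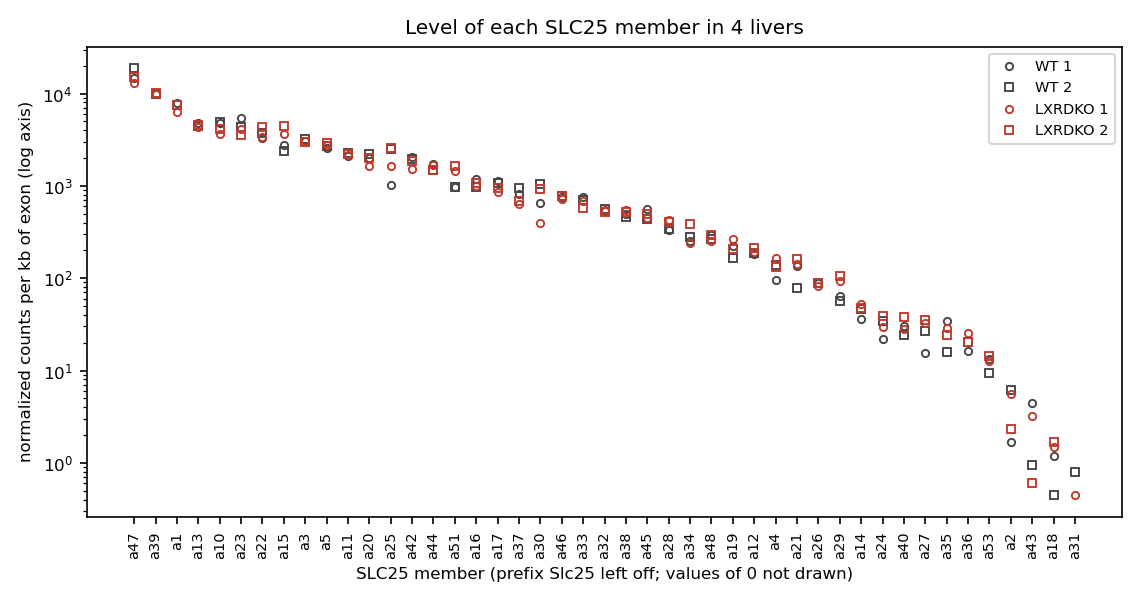
Normalized counts per kb of exon (log axis) of all 45 SLC25 members, ordered by their mean, with 1 symbol per liver (grey, WT; red, LXRDKO; values of 0 not drawn). The highest member, Slc25a47, has a mean of 15360 per kb, and the 4 members at the right end did not reach a mean of 10 normalized counts.

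The family total did not separate the genotypes. Summed over all members, the level was 77712 and 82150 normalized counts per kb in WT and 72138 and 80225 in LXRDKO, and these ranges overlapped. At the low end, 4 members stayed under the mean of 10 normalized counts set for testing. The ornithine carrier Slc25a2, on chromosome 18, had 2 and 10 reads in WT and 8 and 3 in LXRDKO. The glutamate carrier Slc25a18 had 1 to 3 reads per liver, the ADP/ATP carrier Slc25a31 had 0 to 2 and Slc25a43, which has no settled substrate, had 1 to 7. At these reads no genotype difference was detectable for any of the 4.

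The remaining 41 members were tested within the fit of all 15578 genes that passed the filter. LXRDKO exceeded WT for 22 of them and fell short for 19. The median log2 fold change was 0.01 over the members and −0.0046 over all genes tested. The members ran from −0.44 to 0.71, and 14 of them differed by less than 10%. By limma, 0 of 41 members passed an adjusted P value of 0.05, against 0.321% of all genes tested, and edgeR called 0 as well. At an unadjusted P value under 0.05, limma gave 4 members higher and 3 lower in LXRDKO, where the background was 5.77% of genes higher and 7.5% lower. DESeq2, which the study used, called 2 members higher (Slc25a15 and Slc25a51) and 0 lower, against backgrounds of 1.56% higher and 2.03% lower. That is 4.88% of the members, from a count of 2. The LXRDKO livers both exceeded the WT livers for 11 members (26.8%, background 21.7%) and both fell below them for 6 (14.6%, background 23%).

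**Figure D2:**
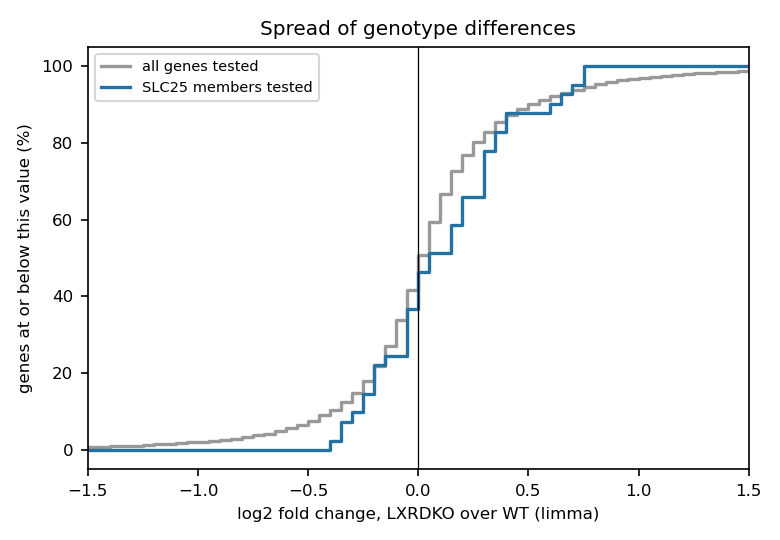
Share of genes (vertical axis, %) at or below a given log2 fold change of LXRDKO over WT (horizontal axis), for the SLC25 members tested (blue) and all genes tested (grey), in steps of 0.05. The members' curve starts at −0.44 and ends at 0.71, while both medians lie near 0.

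**Figure D3:**
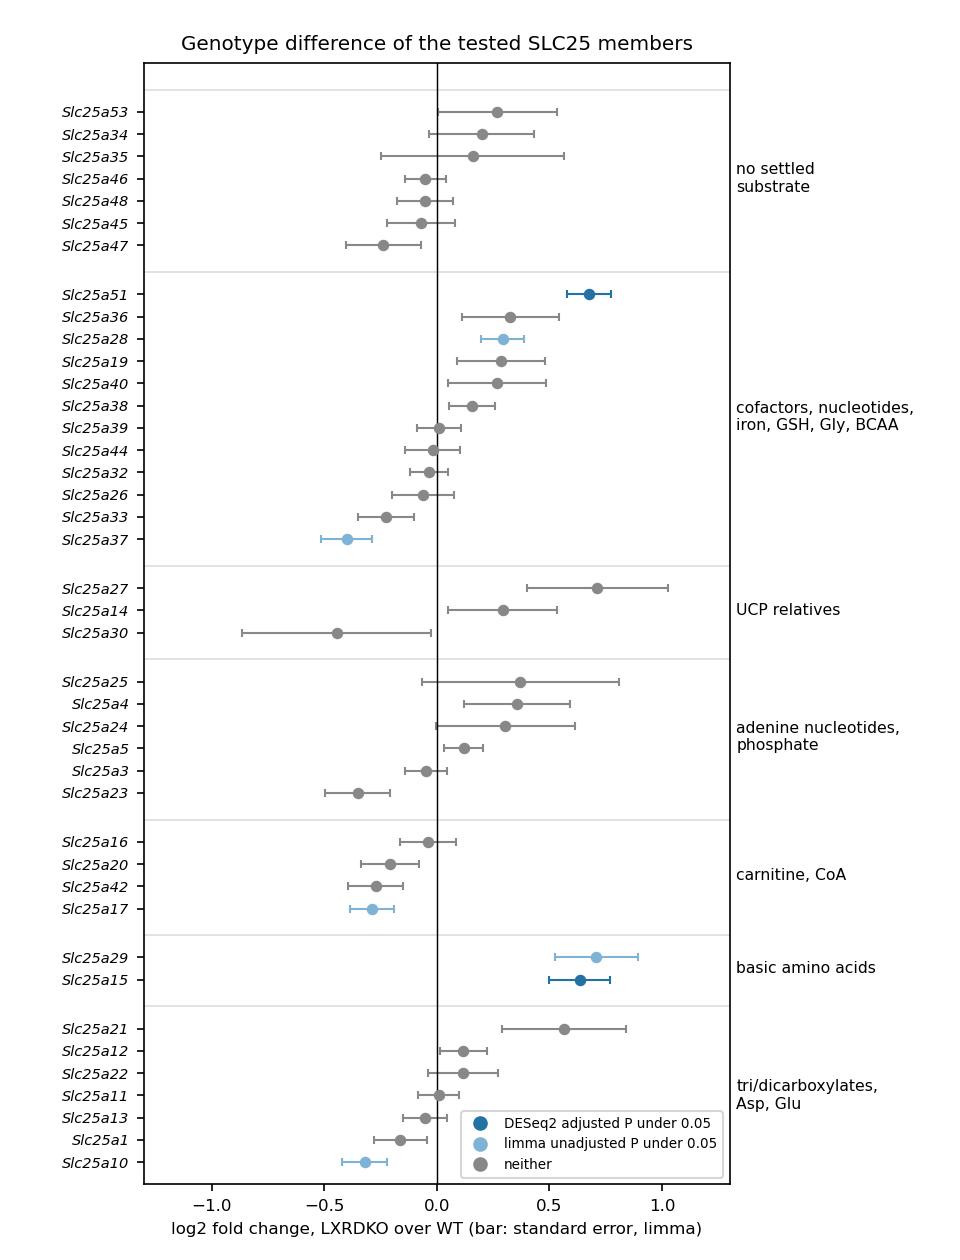
Log2 fold change of LXRDKO over WT (horizontal axis, points) with its standard error (bars) from limma for the 41 tested SLC25 members, grouped by the molecules they carry. Slc25a15 and Slc25a51, called by DESeq2, are dark blue, and the 5 other members with an unadjusted limma P value under 0.05 are light blue.

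The ornithine carrier was among the largest differences of the family. Slc25a15 exchanges cytosolic ornithine for matrix citrulline, a step that the urea cycle needs at each turn. On GRCm38, also called mm10, the gene spans bases 22375551 to 22398597 of chromosome 8 on the minus strand. It had 15752 and 13492 normalized counts in WT, against 20675 and 24765 in LXRDKO, so the groups did not overlap. The log2 fold change was 0.63 (standard error 0.14, 95% interval 0.30 to 0.97), or 1.55-fold. Slc25a15 rose in the DESeq2 test (adjusted P = 0.00438) and did not pass in limma (unadjusted P = 0.0040, adjusted P = 0.155). Without WT replicate 2 or without LXRDKO replicate 2 the DESeq2 call was lost (adjusted P = 0.180 and 0.391), with log2 fold changes of 0.53 and 0.50.

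Slc25a29, a carrier of lysine, arginine and ornithine, lay at a far lower level and in the same direction. It had 169 and 148 normalized counts in WT, against 246 and 272 in LXRDKO, with no overlap. Its log2 fold change of 0.71 (standard error 0.18) did not pass in either test (adjusted P = 0.218 by limma and 0.133 by DESeq2). Slc25a15 made up between 97.3% and 97.7% of the summed level per kb of Slc25a2, Slc25a15 and Slc25a29 in every liver. That sum was 2865 and 2460 normalized counts per kb in WT and 3773 and 4506 in LXRDKO.

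The start regions of these carriers are shown because Slc25a15 was called and Slc25a29 carries overlapping substrates, beside that of the citrate carrier Slc25a1, which was not called. Slc25a51, the other member called by DESeq2, had no promoter entry and is not shown. They are RefSeq promoters on GRCm38.p6, each reaching from 250 bases before an annotated start to 50 bases after it, written 5′ to 3′ on the strand of the gene. All 4 lie on minus strands: Slc25a15 has starts in chr8:22398228-22398527 and chr8:22398572-22398871, Slc25a29 in chr12:108835827-108836126 and Slc25a1 in chr16:17928170-17928469. Capitals mark CCAAT on either strand, the core that nuclear factor Y binds.
Slc25a15, start nearer the gene body: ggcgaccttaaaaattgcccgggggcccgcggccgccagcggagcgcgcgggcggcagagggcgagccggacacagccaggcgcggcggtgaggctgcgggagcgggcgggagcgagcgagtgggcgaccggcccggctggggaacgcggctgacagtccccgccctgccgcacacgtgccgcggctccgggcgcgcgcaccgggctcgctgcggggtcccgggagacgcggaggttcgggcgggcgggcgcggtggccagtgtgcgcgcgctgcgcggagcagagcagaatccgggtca
Slc25a15, other start: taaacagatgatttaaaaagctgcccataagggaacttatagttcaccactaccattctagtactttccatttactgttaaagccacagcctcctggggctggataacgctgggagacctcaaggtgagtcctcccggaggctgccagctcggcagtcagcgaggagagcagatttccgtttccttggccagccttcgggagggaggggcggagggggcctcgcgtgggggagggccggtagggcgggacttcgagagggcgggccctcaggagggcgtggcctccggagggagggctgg
Slc25a29: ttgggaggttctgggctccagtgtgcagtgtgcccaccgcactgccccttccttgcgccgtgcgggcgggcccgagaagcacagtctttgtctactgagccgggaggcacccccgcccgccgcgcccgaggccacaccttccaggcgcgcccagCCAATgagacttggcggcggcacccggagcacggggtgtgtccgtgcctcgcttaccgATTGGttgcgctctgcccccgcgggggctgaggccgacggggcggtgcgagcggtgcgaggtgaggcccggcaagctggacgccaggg
Slc25a1: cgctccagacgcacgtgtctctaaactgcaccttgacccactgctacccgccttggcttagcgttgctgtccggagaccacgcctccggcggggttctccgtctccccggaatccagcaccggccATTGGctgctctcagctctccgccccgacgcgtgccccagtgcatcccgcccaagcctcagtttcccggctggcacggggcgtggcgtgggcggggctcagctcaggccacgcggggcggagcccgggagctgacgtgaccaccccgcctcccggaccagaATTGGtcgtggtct
Slc25a29 and Slc25a1 each hold 2 such matches, and neither Slc25a15 window holds any. The Slc25a29 window is shared: in GENCODE, Slc25a47 starts within it, at base 108836046 on the plus strand, 162 bases from Slc25a29. The RefSeq promoter of Slc25a47 lies elsewhere, at chr12:108850879-108851178. G and C made up 79% and 60.7% of the Slc25a15 windows, 72.3% of that of Slc25a29 and 69.3% of that of Slc25a1, against a median of 52.7% over all promoters.

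The same search was run on 45 promoter windows of the 35 members with an entry. Slc25a51 and Slc25a37 had none, so the shares below leave them out. CCAAT was found in 48.9% of the members' windows and in 37.4% of all 32851 windows. Windows of the same gene can overlap, as those of Slc25a23 do, so a match can count in several windows. By gene, 19 of the 35 members had CCAAT in at least 1 window, and no share per gene was computed for all promoters. The nuclear receptor half-site AGGTCA was found in 8.89% of the members' windows and in 16.3% of all windows. DR4, a pair of half-sites in the same direction with 4 bases between them, which LXR and RXR bind, was in 0 of the members' windows and in 0.0152% of all windows. DR1, the pair with 1 base between, was in 0 and 0.0396%. Both strands were searched, and a DR4 or DR1 match always contains half-site letters. These are exact letters within 300 bases and describe no binding. For Slc25a15 the study reported a putative LXR-binding site by ChIP-Seq, shown in an intronic region, and lower expression under LXR agonist. Only the start windows were searched here.

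Most genes of the urea cycle and ornithine use had higher values in LXRDKO, and 1 was called by DESeq2 and 0 by limma. Of 7 listed genes, 6 were higher in LXRDKO without overlap and 1 was lower without overlap. Over all genes tested these shares were 21.7% and 23%, and DESeq2 called 1.56% of genes higher. Asl, which splits argininosuccinate, had 38156 and 37829 normalized counts in WT, against 63632 and 69500 in LXRDKO. On the log2 scale it was higher by 0.81 (standard error 0.12, adjusted P = 6.35e-08 by DESeq2 and 0.0893 by limma). Otc, which uses the ornithine that Slc25a15 imports, was the exception at 30806 and 26234 in WT and 26165 and 22522 in LXRDKO, a log2 fold change of −0.23 that did not pass.

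**Figure D4:**
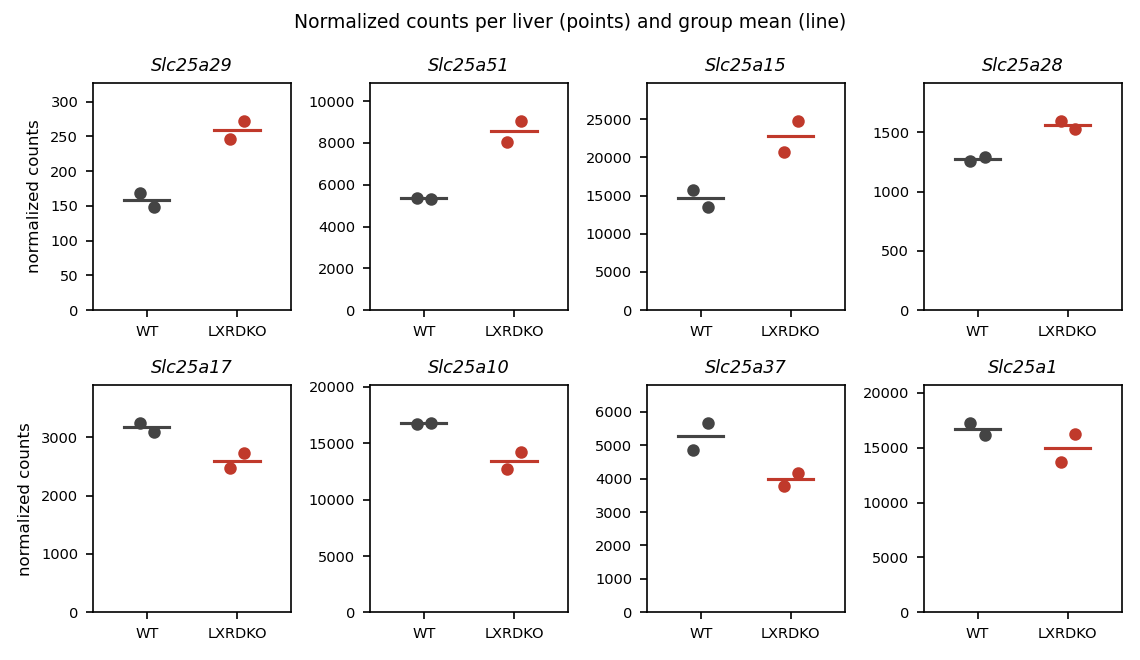
Normalized counts (vertical axes, from 0) in each liver (points) with the group mean (line) for the 7 members with an unadjusted limma P value under 0.05 and for the citrate carrier Slc25a1. The points of WT and LXRDKO do not overlap for the first 7, and those of Slc25a1 do.

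Slc25a51 had the lowest P value of the family. It imports NAD into the mitochondrial matrix, and it lies on chromosome 4 from 45395923 to 45408766 on the minus strand. The WT livers had 5369 and 5329 normalized counts and the LXRDKO livers 8056 and 9058. The log2 fold change was 0.68 (standard error 0.10, 95% interval 0.44 to 0.91), or 1.6-fold. Slc25a51 rose in the DESeq2 test (adjusted P = 9.43e-05) and missed the threshold in limma (unadjusted P = 0.00055, adjusted P = 0.0881). The call held when any liver but LXRDKO replicate 2 was left out, and without that liver the adjusted P value was 0.158 at a log2 fold change of 0.59. A miRNA gene, Gm25692, shares 125 bases of exon with Slc25a51 on the same strand.

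The mitoferrins, which bring iron into the matrix for heme and iron-sulfur clusters, differed in opposite directions. Slc25a37 (mitoferrin-1) had 4859 and 5657 normalized counts in WT, against 3791 and 4165 in LXRDKO. Its log2 fold change was −0.40 (standard error 0.11, unadjusted P = 0.0132, adjusted P = 0.244, limma). Slc25a28 (mitoferrin-2) had 1258 and 1291 in WT and 1596 and 1528 in LXRDKO, a log2 fold change of 0.29 (standard error 0.10, unadjusted P = 0.0247, adjusted P = 0.303, limma). Neither passed the adjusted threshold, and neither pair of groups overlapped. Slc25a37 made up 70.6% and 73.2% of the summed mitoferrin level per kb in WT and 59.7% and 62.9% in LXRDKO. Mitoferrin-1 is best known from red cell precursors. Of 6 erythroid markers 0 were called and 5 overlapped between the genotypes. The limma log2 fold change was positive for 5 of the 6, but with this overlap it shows no clear direction. Slc4a1, the marker without overlap, was higher in LXRDKO and reached at most 23.7 normalized counts. The summed level of the markers was 10466 and 8664 in WT, against 9987 and 9322 in LXRDKO. Alas2 gave most of that sum, and the globin Hbb-bs had 459 and 1562 in WT and 1011 and 1007 in LXRDKO. The Kupffer cell sum given above was lower in the same livers in which Slc25a37 was lower, and its part was not tested.

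**Figure D5:**
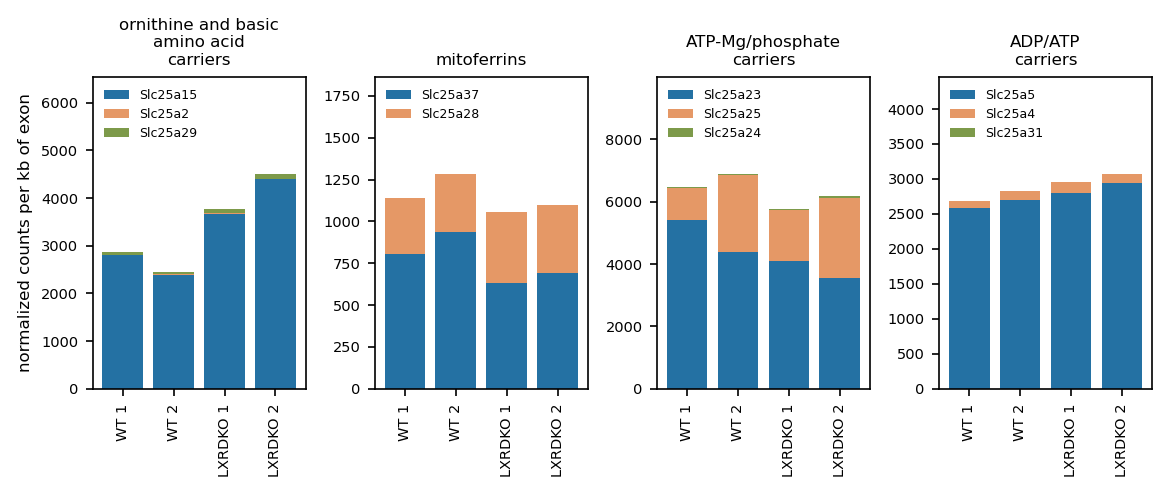
Normalized counts per kb of exon (vertical axes, from 0) of related carriers stacked for each liver: ornithine and basic amino acid carriers, mitoferrins, ATP-Mg/phosphate carriers and ADP/ATP carriers. Slc25a37 takes 70.6% and 73.2% of the mitoferrin bar in WT and 59.7% and 62.9% in LXRDKO.

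Of the other 9 carriers of cofactors, pyrimidine nucleotides, glutathione, glycine and branched-chain amino acids, none was called by any of the 3 tests. Slc25a33, a pyrimidine nucleotide carrier, had 1428 and 1338 normalized counts in WT, against 1290 and 1084 in LXRDKO, while its paralog Slc25a36 had 157 and 194 in WT and 246 and 196 in LXRDKO. Slc25a38, which supplies glycine for heme synthesis, had 1362 and 1273 in WT and 1514 and 1424 in LXRDKO, a log2 fold change of 0.16 (standard error 0.10). The folate carrier Slc25a32 (−0.03), the branched-chain amino acid carrier Slc25a44 (−0.02) and the S-adenosylmethionine carrier Slc25a26 (−0.06) lay near 0 on the log2 scale.

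The citrate carrier was not called, while DESeq2 called 3 enzymes that use citrate or its products. Limma and edgeR called 0 of the citrate genes listed. Slc25a1, on chromosome 16 from 17925223 to 17928219, exports citrate from the matrix for acetyl-CoA production in the cytosol. It had 17229 and 16148 normalized counts in WT, against 13704 and 16224 in LXRDKO, and 1 LXRDKO liver lay within the WT range. The log2 fold change was −0.16 (standard error 0.12, 95% interval −0.45 to 0.13, adjusted P = 0.635, limma). Of 6 listed genes of citrate synthesis and use, 5 were lower in LXRDKO without overlap, and DESeq2 called 3 of these (Acaca, Fasn and Me1). Among all genes the shares were 23% lower without overlap and 2.03% called lower by DESeq2. Fasn, the fatty acid synthase, had 31771 and 51989 normalized counts in WT, against 10096 and 13651 in LXRDKO, or −1.79 on the log2 scale (standard error 0.26, adjusted P = 5.79e-11 by DESeq2 and 0.0893 by limma). Acly, which cleaves the exported citrate, had 17991 and 16181 in WT and 10355 and 14530 in LXRDKO and was not called (log2 fold change −0.48, standard error 0.18, adjusted P = 0.229 by DESeq2). The difference between Slc25a1 and these enzymes was not tested.

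The dicarboxylate carrier Slc25a10, which trades malate or succinate for phosphate, had nearly equal values of 16724 and 16783 in WT and lower values of 12675 and 14197 in LXRDKO. This was −0.32 on the log2 scale (standard error 0.10, unadjusted P = 0.0202, adjusted P = 0.287, limma). Slc25a21, the oxodicarboxylate carrier, had 664 and 377 normalized counts in WT, against 690 and 793 in LXRDKO, or 0.56 on the log2 scale (standard error 0.28, adjusted P = 0.458). The gap between the WT livers was larger than the step from the higher WT liver to the LXRDKO livers. Without WT replicate 1 the log2 value was 0.97, and without WT replicate 2 it was 0.16. The oxoglutarate carrier Slc25a11 lay at 0.01 on the log2 scale, with a 95% interval from −0.22 to 0.23.

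The aspartate-glutamate carriers, which serve the malate-aspartate shuttle and feed aspartate to the urea cycle, were not called. Slc25a13 (citrin), the main liver form, had 18286 and 17017 normalized counts in WT, against 16470 and 17543 in LXRDKO. Its difference on the log2 scale was −0.05 (95% interval −0.30 to 0.19). The minor form Slc25a12 had 1338 and 1371 in WT and 1393 and 1548 in LXRDKO. These groups did not overlap, and the gene did not pass (log2 fold change 0.12, 95% interval −0.14 to 0.38). The glutamate carrier Slc25a22 had 19536 and 22676 in WT and 20127 and 25872 in LXRDKO, with overlap. Among the 4 shuttle enzymes, Got1, the cytosolic aspartate aminotransferase, had 16831 and 20585 in WT and 50704 and 57568 in LXRDKO. It rose by 1.54 on the log2 scale (standard error 0.14, adjusted P = 0.0333 by limma), while Got2, Mdh1 and Mdh2 were not called.

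All 4 carriers of carnitine and coenzyme A had negative log2 fold changes, from −0.29 to −0.04, and none was called. These values moved with single livers: Slc25a16, at −0.04, turned to 0.11 without WT replicate 1 and to 0.01 without LXRDKO replicate 1. Without LXRDKO replicate 1, Slc25a20 went to −0.07 and Slc25a42 to −0.13. The carnitine-acylcarnitine carrier Slc25a20, on chromosome 9 from 108662088 to 108684641, takes fatty acyl groups into the matrix for oxidation. It had 9594 and 10731 normalized counts in WT, against 7947 and 9690 in LXRDKO, and the groups overlapped. Its log2 fold change was −0.21 (standard error 0.13, 95% interval −0.53 to 0.11, adjusted P = 0.564, limma). Slc25a17, a peroxisomal carrier of coenzyme A and related cofactors, had 3239 and 3096 in WT and 2469 and 2729 in LXRDKO. This was −0.29 on the log2 scale (standard error 0.10, unadjusted P = 0.0271, adjusted P = 0.308). Slc25a42, a mitochondrial coenzyme A carrier, had 12411 and 11852 in WT and 9095 and 11104 in LXRDKO, or −0.27 on the log2 scale (standard error 0.12, adjusted P = 0.416). The 5 listed carnitine shuttle genes were likewise all on the negative side, overlapped between genotypes, and were not called. Cpt1a, which makes the acylcarnitines, had 50268 and 57484 in WT and 48151 and 56912 in LXRDKO.

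Carriers of adenine nucleotides and phosphate gave 0 calls among 6 tested. The phosphate carrier Slc25a3, which supplies ATP synthesis, had 17023 and 17944 normalized counts in WT, against 17134 and 16656 in LXRDKO. The 95% interval of its log2 fold change ran from −0.28 to 0.18. Slc25a5, the main ADP/ATP carrier in these livers, had 4257 and 4432 in WT and 4602 and 4838 in LXRDKO. The groups did not overlap, yet the log2 fold change was small and did not pass (0.12, standard error 0.09, adjusted P = 0.635). A processed pseudogene, Slc25a5-ps, is also listed in the table, so reads of Slc25a5 are uncertain by what the counting assigned to the copy. The muscle form Slc25a4 had 225 and 328 in WT and 387 and 312 in LXRDKO.

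The ATP-Mg/phosphate carriers adjust the adenine nucleotide pool of the matrix in response to calcium. Slc25a23 had 28726 and 23149 normalized counts in WT, against 21767 and 18752 in LXRDKO, or −0.35 on the log2 scale (standard error 0.15, adjusted P = 0.390 by limma). Its paralog Slc25a25 varied more within genotypes than between them, at 8036 and 19536 in WT and 12892 and 20343 in LXRDKO. Slc25a23 made up 83.9% and 63.5% of the summed level per kb of this group in WT and 71.1% and 57.4% in LXRDKO, so its share overlapped between genotypes.

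The uncoupling protein relatives were mostly low. Slc25a27 had the highest limma log2 fold change of the tested members, 0.71, on 62 and 105 normalized counts in WT, against 128 and 137 in LXRDKO. With a standard error of 0.31 and a 95% interval from −0.07 to 1.49 it did not pass (adjusted P = 0.409). Without WT replicate 1 the value was 0.33, which is below those of several other members, and without WT replicate 2 it was 1.09. By DESeq2 Slc25a27 lay at 0.66, below Slc25a29 (0.71) and Slc25a51 (0.68). Slc25a30 had the lowest limma log2 fold change of the tested members, −0.44 (standard error 0.42), at 2995 and 4763 in WT and 1823 and 4227 in LXRDKO. By DESeq2 it was −0.36, and Slc25a37 was lower at −0.40. The LXRDKO livers differed 2.32-fold from each other in Slc25a30. Its direction rested on 1 liver, since without LXRDKO replicate 1 the log2 fold change was 0.16. Ucp2, a family member under another symbol, had 1426 and 1807 in WT and 2438 and 2183 in LXRDKO, or 0.52 on the log2 scale (standard error 0.14, adjusted P = 0.235 by limma and 0.0934 by DESeq2). The 7 tested members with no settled substrate, Slc25a47 among them, all overlapped between genotypes, with log2 fold changes from −0.24 to 0.27.

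Import of the carriers into the inner membrane runs through the TOM receptor that reads their internal signals, the small TIM chaperones and the TIM22 complex. Of 10 genes of this route 5 were higher and 5 lower, and 0 were called by limma, DESeq2 or edgeR, with 1 in each direction at an unadjusted limma P value under 0.05. Tomm70a, the receptor, had 10056 and 10497 normalized counts in WT, against 7842 and 8563 in LXRDKO, or −0.33 on the log2 scale (standard error 0.09, adjusted P = 0.249 by limma). Timm10, a small TIM, had 899 and 977 in WT and 1164 and 1113 in LXRDKO. The 3 outer membrane channels Vdac1, Vdac2 and Vdac3, through which the carriers' substrates reach the inner membrane, had log2 fold changes from −0.14 to 0.05.

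For 1 gene in 2 livers per genotype, the smallest P value that a two-sided exact permutation test allows is 0.33, and the P values above therefore rest on spread pooled across genes. Exons of 12 members overlap those of a gene on the opposite strand, Slc25a10, Slc25a21, Slc25a23 and Slc25a37 among those described. The strand setting of the counting is not given in the sources used here.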

How the data were processed

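RNA of the left liver lobe of 2 WT and 2 LXRDKO mice was captured by the authors with the KAPA Stranded kit, sequenced as single-end 50 bp reads, checked with FastQC and aligned to mm10 with STAR 2.6.0c. The tool, strand setting and annotation behind the counts are not given in the sources used here. The deposited values are a signal, gene counts that the authors normalized with DESeq2. Multiplied by the size factors, 100% of values were whole to within 0.1 read, which gave 55772659 to 72842744 reads per library. Samples labelled as ATAC-Seq were not analysed here.

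Because the table holds normalized counts, the genotypes were compared on log2(normalized count + 1) by limma 3.58.1 (R 4.3.3) with its trend option. The 15578 genes whose mean reached 10 entered the fit, and P values were adjusted over them by the Benjamini-Hochberg method. The added 1 pulls fold changes of low genes toward 0, yet values on this scale could still exceed those of DESeq2. For Slc25a27 the log2 fold change was 0.71 by limma and 0.66 by DESeq2. DESeq2 1.42.0, which the study used, and edgeR 4.0.16 (quasi-likelihood test) used the recovered reads. The independent filter of DESeq2 was first set for 0.05 and was put back to its default target after the resulting count of called genes had been seen. Both settings called Slc25a15 and Slc25a51. In simulated data for this comparison limma called 183 of 200 changed genes and 6 unchanged genes among 15578, DESeq2 158 and 6 among 15591, and edgeR 185 and 10 among 15578. Simulated dispersion was fixed, so these shares may not carry over to the livers.

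Gene positions and exon lengths came from GENCODE M21 on GRCm38, which holds 47 such carriers, 2 of them (Slc25a41 and Slc25a54) without a row here. Members and lists were chosen with earlier results of these data known. Values are printed for the citrate, ornithine and carnitine carriers, members called by limma or DESeq2, the 10 highest per kb, and the 5 largest rises and falls without overlap. Other members and context genes were named after their values were seen. Alternatives changed the pseudocount (0.5 or 8), dropped the filter or raised it to a mean of 50, and used other scalings, no trend, a threshold of 0.10, the replicate number as a block, and leaving out each liver. The correlation of replicate deviations between genotypes was 0.0031 across genes, which gave no sign that the numbers paired the mice. With 2 livers per genotype this value cannot show whether they were paired. P values rest on the spread between these mice, pooled across genes.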

Additional observations from a re-analysis of the deposited data

How the results depend on the processing

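The number of genes called, 50 by limma, depended strongly on the test. It was 25 with a mean of at least 50, 1 without the trend, 138 at a threshold of 0.10, 567 with DESeq2 and 580 with the DESeq2 filter set for 0.05, a setting added after seeing the data. With each liver left out in turn it ranged from 2 to 265, with 265 without WT replicate 1, 157 without WT replicate 2, 2 without LXRDKO replicate 1 and 4 without LXRDKO replicate 2. With the replicate number as a block it was 90, though no sign was seen that the numbers paired the mice. The block changed no call among the members, with 0 by limma and 2 by DESeq2.

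Of the SLC25 members limma called 0, against 1 (Slc25a51) at a threshold of 0.10 and 2 with DESeq2 under either filter setting. The members called by DESeq2, 2 in all, ranged from 1 to 3 with a liver left out. Slc25a15, Slc25a21 and Slc25a51 were called without WT replicate 1, Slc25a51 alone without WT replicate 2, Slc25a15 and Slc25a51 without LXRDKO replicate 1, and without LXRDKO replicate 2 only Slc25a30, which was lower (log2 fold change −1.09, adjusted P = 0.00996, DESeq2). The direction of Slc25a30 was not stable, at 0.12 without LXRDKO replicate 1 and 0.01 without WT replicate 2 by DESeq2. Leaving out a liver leaves a genotype with 1 sample, whose spread is then taken from the other genotype. The median log2 fold change of the members, 0.0116, stayed within its replicate spread of 0.0681 in every alternative run. Of 270 values for 18 named members, 265 kept their direction and 5 turned. Over all 41 tested members, 16 turned in at least 1 alternative, Slc25a30 and Slc25a16 among them. Slc25a3 (0.0055) and Slc25a13 (0.0011) turned with scaling to the library total, Slc25a22 ran from −0.0645 to 0.298 with a liver left out, and Slc25a39, from −0.0125 to 0.0357, turned to −0.0014 without WT replicate 1 and to its lowest value without LXRDKO replicate 2. The cause was not tested. Scaling moved the median of all genes by at most 0.0543, with the library total. At this depth counting error is small for the members with many reads, and the number of mice sets the precision.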
